A study of Mus musculus with 6 samples.

Results

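The 10 genes studied here, all of polyamine synthesis and breakdown (*Odc1*, *Amd1*, *Amd2*, *Srm*, *Sms*, *Smox*, *Sat1*, *Paox*, *Oaz1* and *Azin1*), were followed in RNA-seq of mouse tibialis anterior (TA) muscle. They are 10 of the 41709 genes of the table, were found by their symbols, and had in all 10 cases the mean of at least 1 TPM (the share of a library's transcripts, corrected for length) that was required for a test. The list was assembled from what the genes do, but it was chosen by the increase of *Amd1*, the largest of the comparison described here, and *Amd2* was taken in after its own values had been seen. The differences of *Amd1* and *Amd2* are therefore given without a test, and the counts of members that follow are a description that supports no statement about the pathway. The tests of the other 8 members come from a fit over the whole table, and they too belong to a list whose results in this comparison were known.

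Lrpprc is an RNA-binding protein of mitochondria that also acts as a transcriptional co-activator, and the study asked what follows when its proline at residue 27 cannot be hydroxylated. One TA muscle of a male C57BL/6 J mouse received by electroporation a plasmid for Flag-tagged wild-type mouse Lrpprc (LrpprcWT), and the contralateral TA a plasmid for the Flag-tagged P27A variant, in which this proline is an alanine (LrpprcP27A). Each group held 3 libraries (replicates 1, 2 and 3), taken 14 days later and described as biological replicates. Both groups thus carried a Lrpprc transgene under the CMV promoter, which is not restricted to 1 cell type, and both kept their own *Lrpprc* gene. The methods give mice of 4 and 27 months, and which of them gave these libraries was not stated with the RNA-seq. Muscles electroporated with GFP were part of the study and were not analysed here.

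Putrescine, spermidine and spermine are small, positively charged molecules that bind nucleic acids and are needed for growth and for translation. Ornithine decarboxylase (*Odc1*) makes putrescine from ornithine, and S-adenosylmethionine decarboxylase (*Amd1*, *Amd2*) makes the aminopropyl donor that spermidine synthase (*Srm*) and spermine synthase (*Sms*) add to it in turn. Breakdown runs through the acetyltransferase SSAT (*Sat1*) followed by the acetylpolyamine oxidase (*Paox*), or directly from spermine through spermine oxidase (*Smox*). Antizyme (*Oaz1*) inhibits ornithine decarboxylase and sends it to the proteasome, and antizyme inhibitor (*Azin1*) binds antizyme and so relieves that inhibition. In skeletal muscle, polyamine levels and these enzymes are known to change with growth and with atrophy.

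The TPM values keep no read counts, so the depth of the libraries and the counting error are unknown. *Lrpprc* itself, plasmid and endogenous gene together, was at 35.1, 37.0 and 75.2 TPM with LrpprcWT and at 26.9, 29.7 and 26.0 TPM with LrpprcP27A (log2 difference -0.72, limma adjusted p = 0.0652, and 0.00243 with the replicate number as a block). Median-of-ratios scaling gave -0.31, with an adjusted p of 0.402 and of 0.295 with the block. Of all 11611 tested genes, 88.0% had a log2 difference below 0, with a median of -0.32 on the log2(TPM + 1) scale, and under median-of-ratios scaling of the libraries the median was 0.04. Each member is therefore given on both scales. Muscle markers were high in every library: the 10 myofibre markers summed to 141624 to 156527 TPM with LrpprcWT and to 131012 to 148084 TPM with LrpprcP27A. All 9 tested macrophage markers and 8 of 9 tested fibroblast markers were lower with LrpprcP27A at an adjusted p under 0.05 (4 and 6 of them after median-of-ratios scaling). The 10 macrophage markers summed to 316 to 633 TPM with LrpprcWT and to 106 to 216 TPM with LrpprcP27A, and the 10 fibroblast markers to 1016 to 1689 TPM and to 273 to 599 TPM. Of the tested endothelial and satellite cell markers, 3 of 8 and 3 of 5 were lower, and 0 and 2 after median-of-ratios scaling. Over all tested genes 23.3% were lower, and 5.81% after that scaling. None of the macrophage or fibroblast markers was at 0 in every library. In whole muscle, fewer cells of a type and less RNA per cell cannot be told apart, and the part of these cells in the results below was not tested.

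With LrpprcP27A, the mRNAs for S-adenosylmethionine decarboxylase and spermine oxidase lay farthest above LrpprcWT, and those for the acetyltransferase and antizyme inhibitor farthest below. *Amd1* stood 4.03 times higher and *Smox* 2.48 times higher in mean TPM. *Sat1* was at 0.395 and *Azin1* at 0.484 of their LrpprcWT means. Of the 8 members with a test, 1 rose (*Smox*) and 2 fell (*Sat1*, *Azin1*) at an adjusted p under 0.05, beside 1.34% of all tested genes higher and 23.3% lower. The TPM ranges of the groups did not overlap for 2 of these 8 that were higher (*Sms*, *Smox*) and 4 that were lower (*Sat1*, *Azin1*, *Paox*, *Oaz1*), beside 3.51% and 47.6% of all tested genes. With the block, 2 were called higher and 5 lower, beside 2.69% and 48.4%, and with median-of-ratios scaling 2 were called higher and 2 lower, beside 6.83% and 5.81%. The median log2 difference over all 10 members was 0.00, and 0.42 after median-of-ratios scaling. It includes *Amd1* and *Amd2*, whose values led to the list, so it is not set against the median of all genes. Without LrpprcWT replicate 2, 5 of the 8 were called lower, beside 59.5% of all genes. Without LrpprcWT replicate 1 (2.51% of all genes lower) or LrpprcP27A replicate 3 (3.79%), 1 was called lower, *Sat1*. Without LrpprcWT replicate 3 (0.129%), limma called none of the 8. At an unadjusted p under 0.05 that fit had 2 higher and 3 lower, beside 237 and 3205 of all 11611 genes.

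**Figure D1:**
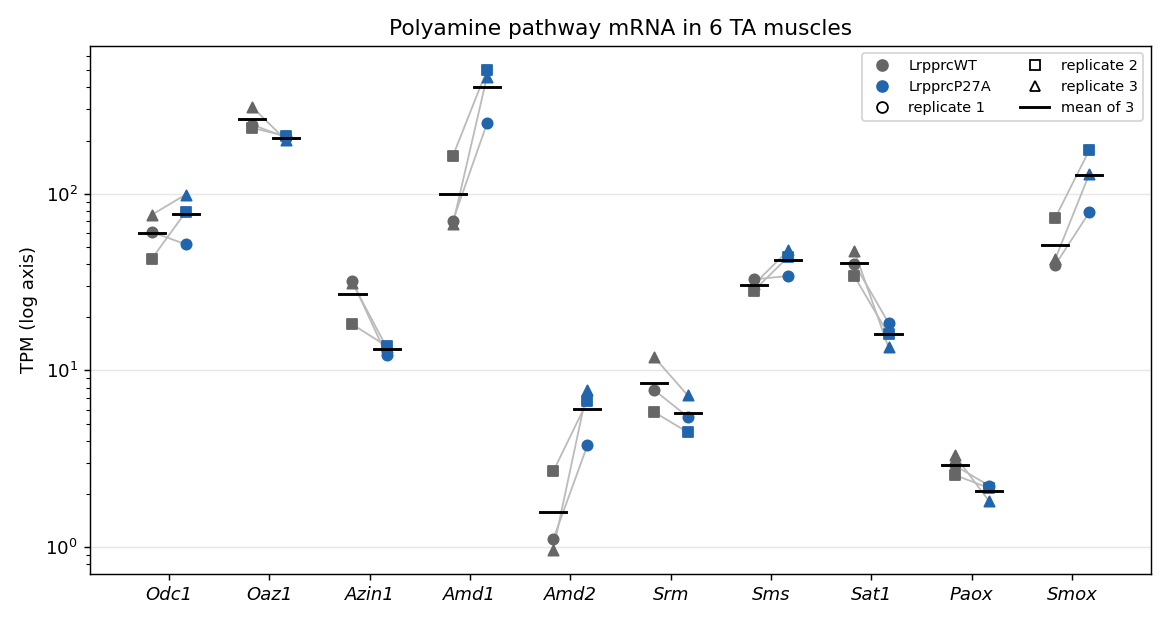
TPM of the 10 genes (log axis) in each of 6 TA muscles, ordered by role: ornithine decarboxylase and its regulators, synthesis, then breakdown. Symbols mark the replicate, grey lines join libraries with the same replicate number and black bars are the mean of 3. Amd1 lies between 67.1 and 163 TPM with LrpprcWT and between 249.8 and 502 TPM with LrpprcP27A, while the points of Odc1 and Srm overlap between the groups.

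*Amd1*, which makes the aminopropyl donor for both spermidine and spermine, was at 70.2, 163 and 67.1 TPM with LrpprcWT and at 249.8, 502 and 459 TPM with LrpprcP27A. LrpprcWT replicate 2 was the highest of its group by a wide gap, and it still lay below all 3 LrpprcP27A libraries. The means were 100.3 ± 54.8 and 404 ± 135 TPM (SD, n = 3 each). The log2 difference was 2.06 ± 0.36 (SE), or 2.48 after median-of-ratios scaling, and it ranked 1 of 11611 tested genes. This rank is what brought the gene to notice. Below it in rank, *Amd2* stood at 12 and *Smox* at 18. In the files' build, GRCm39, *Amd1* (ENSMUSG00000075232) is annotated by GENCODE on the minus strand at chr10:40162797-40178185.

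*Amd2* is a separate gene of 1 annotated exon for the same enzyme on the same chromosome, at chr10:35584671-35587888. It was at 1.10, 2.68 and 0.966 TPM with LrpprcWT and at 3.76, 6.69 and 7.78 TPM with LrpprcP27A. The groups did not overlap, and replicate 2 was again the highest of the LrpprcWT libraries. The log2 difference was 1.47 ± 0.29 (SE), and 1.74 after median-of-ratios scaling. The value of *Amd2* is uncertain, because many of its reads cannot be told from those of *Amd1*. Both coding sequences are 1005 bases long and differ at 1 base, G796C (position counted from the first coding base, base of *Amd1* first), the first base of codon 266. The stretch around this base, coding bases 767 to 826 of both genes, is shown here because it is the only place at which a read from the coding sequence can separate them, with the differing base in capitals:
Amd1: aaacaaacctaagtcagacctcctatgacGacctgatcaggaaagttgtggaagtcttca
Amd2: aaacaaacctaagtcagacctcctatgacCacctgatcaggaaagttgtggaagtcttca
Of the 906 windows of 100 bases (the read length) in the coding sequence of *Amd2*, 806 (89.0%) are also in *Amd1*, as are 2273 of the 3119 windows (72.9%) of its whole transcript. The comparison used 1 *Amd1* transcript, chosen for a coding length nearest to that of *Amd2*. The ratio of *Amd1* to *Amd2* TPM was 63.6, 61.0 and 69.4 with LrpprcWT and 66.4, 75.1 and 59.1 with LrpprcP27A. It overlapped between the groups, while the ratio of the group means was 4.03 for *Amd1* and 3.83 for *Amd2*. The pseudogenes *Amd-ps1*, *Amd-ps3* and *Amd-ps4* also share runs of 100 identical bases with both genes.

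*Odc1*, the first enzyme of the pathway, was at 60.7, 42.8 and 75.9 TPM with LrpprcWT and at 51.8, 79.0 and 98.9 TPM with LrpprcP27A. The groups overlapped, and LrpprcP27A was the higher in 2 of 3 pairs of the same replicate number. The log2 difference was 0.34, with a 95% interval of -0.25 to 0.93 (limma adjusted p = 0.305). With the libraries scaled by median of ratios it was 0.76 (adjusted p = 0.0758), and it passed the threshold in the fit that joined this scaling with the block (adjusted p = 0.0207). Runs of 100 bases identical to *Odc1* occur in 10 other annotated genes, among them several pseudogenes. Within a library, the ratio of *Amd1* to *Odc1* was 1.16, 3.82 and 0.883 with LrpprcWT and 4.83, 6.36 and 4.64 with LrpprcP27A. The ranges of this ratio did not overlap, with LrpprcWT replicate 2 nearest to the other group. Its numerator, *Amd1*, led to the list and the groups of *Odc1* overlapped, so the ratio is a description only.

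*Srm* and *Sms*, the aminopropyl transferases, had log2 differences of opposite sign, that of *Srm* with overlapping groups. *Srm*, for spermidine synthase, was at 7.78, 5.83 and 11.98 TPM with LrpprcWT and at 5.46, 4.46 and 7.22 TPM with LrpprcP27A. The ranges overlapped, and LrpprcP27A was the lower of each pair. The log2 difference of -0.47 (95% interval -1.03 to 0.08) had an adjusted p of 0.153, one of 0.00676 with the block, and was -0.10 after median-of-ratios scaling (adjusted p = 0.734). *Sms*, for spermine synthase, was at 32.7, 28.3 and 30.7 TPM with LrpprcWT and at 34.2, 43.9 and 47.7 TPM with LrpprcP27A. Its ranges did not overlap, although LrpprcP27A replicate 1 lay close to the LrpprcWT libraries. The log2 difference was 0.43 ± 0.14 (SE), with an adjusted p of 0.0535 from limma and of 0.0126 from the blocked fit. Median-of-ratios scaling gave 0.84 (adjusted p = 0.026). Within a library, the ratio of *Sms* to *Srm* was 3.87 ± 1.18 with LrpprcWT and 7.57 ± 1.97 with LrpprcP27A (SD, n = 3 each). All 3 LrpprcP27A ratios were above those of LrpprcWT.

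*Smox*, for the enzyme that oxidises spermine back to spermidine, was at 39.5, 72.7 and 42.5 TPM with LrpprcWT and at 78.3, 176 and 129 TPM with LrpprcP27A. LrpprcWT replicate 2 and LrpprcP27A replicate 1 were nearest to each other, and the ranges did not overlap. Mean TPM rose from 51.6 ± 18.4 to 128 ± 49.1 (SD, n = 3 each), a log2 difference of 1.27 ± 0.31 (SE, limma adjusted p = 0.027). Median-of-ratios scaling gave 1.69 (adjusted p = 0.0409). With the block the limma adjusted p was 5.36e-07, and LrpprcP27A was the higher of each pair. With 1 library left out, the log2 difference stayed between 1.0 and 1.58. Without the block, the call rested on few libraries. It held in 2 of the 6 fits that left out 1 library (without LrpprcWT replicate 2, 0.00743, and without LrpprcP27A replicate 1, 0.00875). It was lost without LrpprcWT replicate 1 (0.0859) or 3 (0.125) and without LrpprcP27A replicate 2 (0.0666) or 3 (0.0689). The annotated long non-coding RNA *Gm30679* overlaps 314 exonic bases of *Smox* on the opposite strand, 3.5% of them. The library kit does not mark strand, so reads of the 2 could not be told apart there. Such overlaps with a long non-coding RNA took a larger share of the exonic bases of *Odc1* (4.0%), *Azin1* (7.9%) and *Oaz1* (15.5%).

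*Sat1*, for the acetyltransferase that opens the other route of breakdown and of export, was at 40.1, 34.1 and 47.4 TPM with LrpprcWT and at 18.6, 16.0 and 13.5 TPM with LrpprcP27A. The lowest LrpprcWT library stood well above the highest LrpprcP27A library. Mean TPM fell from 40.6 ± 6.67 to 16.0 ± 2.55 (SD, n = 3 each), a log2 difference of -1.29 ± 0.16 (SE, limma adjusted p = 0.00942). The log2 difference after median-of-ratios scaling was -0.88 (adjusted p = 0.0226). With the block and TPM as deposited, the limma adjusted p was 1.25e-06. The call was lost without LrpprcWT replicate 3 (adjusted p = 0.0668) and held in the other 5 fits without 1 library. The summed macrophage and fibroblast markers given above fell between the same groups, and their part in *Sat1* was not tested. *Sat1* shares identical runs of 100 bases with 4 other annotated genes.

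*Paox*, for the oxidase that acts on the acetylated polyamines, was at 2.90, 2.56 and 3.30 TPM with LrpprcWT and at 2.23, 2.16 and 1.82 TPM with LrpprcP27A. It was among the lowest members, and its groups did not overlap. The log2 difference of -0.35 (95% interval -0.67 to -0.03) had an adjusted p of 0.09, and of 0.0494 with the block. It was near the median of all genes, and came to -0.05 after median-of-ratios scaling and 0.06 after quantile normalization. The breakdown genes were also compared within a library. The ratio of *Smox* to *Sat1* was 0.984, 2.13 and 0.897 with LrpprcWT and 4.21, 11.0 and 9.56 with LrpprcP27A. The ratio of *Smox* to *Paox* was 13.6, 28.4 and 12.9 with LrpprcWT and 35.1, 81.7 and 70.7 with LrpprcP27A. Neither ratio overlapped between the groups, which followed from the single genes. *Smox* was higher, and *Sat1* and *Paox* lower, in every LrpprcP27A library than in any LrpprcWT library. A ratio within 1 library does not change when the whole library is scaled by a single factor. Quantile normalization is not such a scaling.

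**Figure D2:**
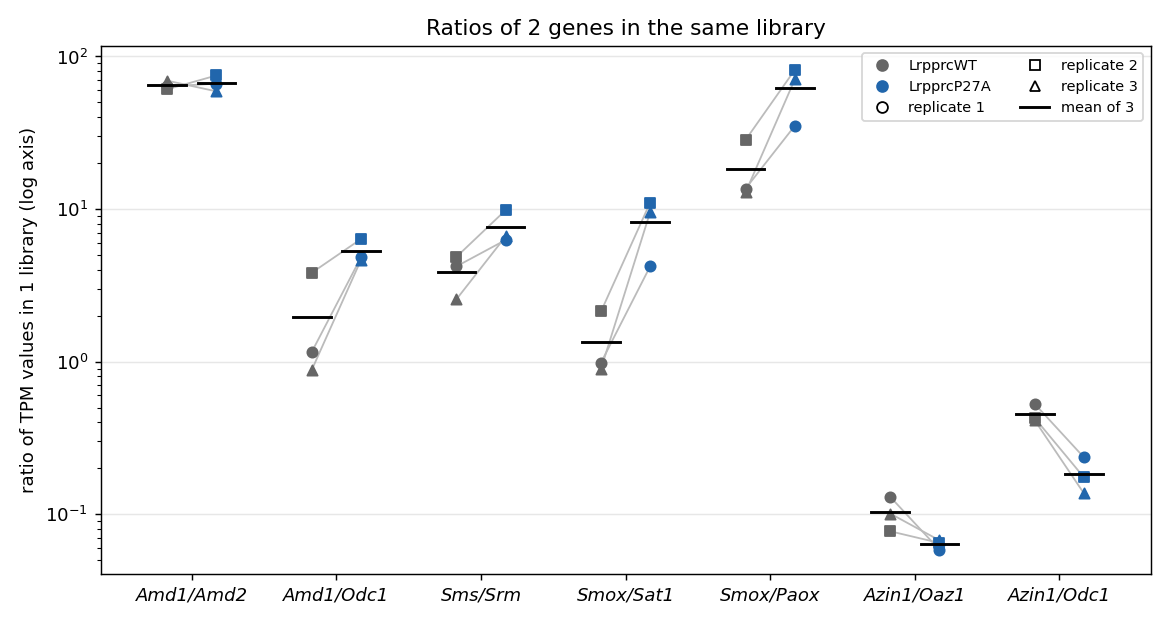
Ratio of the TPM of 2 members in the same library (log axis), by group and replicate, with the mean of 3 as a black bar. Amd1/Amd2 stays between 59.1 and 75.1 in all 6 libraries, and Smox/Sat1 goes from at most 2.13 with LrpprcWT to at least 4.21 with LrpprcP27A.

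*Oaz1*, for antizyme, was the highest member of the list in every LrpprcWT library, at 246, 236 and 309.8 TPM. With LrpprcP27A it was at 208, 212 and 201 TPM, below *Amd1* in all 3 libraries. The groups did not overlap, with a log2 difference of -0.34 (95% interval -0.61 to -0.06, adjusted p = 0.0665, and 0.0306 with the block). That is the size of the median of all genes, and after median-of-ratios scaling the value was 0.08 (adjusted p = 0.648). No direction is therefore given for *Oaz1*.

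*Azin1*, for antizyme inhibitor, was at 31.9, 18.2 and 31.3 TPM with LrpprcWT and at 12.2, 13.7 and 13.5 TPM with LrpprcP27A. LrpprcWT replicate 2 lay nearest to the LrpprcP27A libraries, which were close to one another. Mean TPM fell from 27.1 ± 7.75 to 13.1 ± 0.839 (SD, n = 3 each), a log2 difference of -0.95 ± 0.20 (SE, limma adjusted p = 0.022). Median-of-ratios scaling gave -0.55 (adjusted p = 0.0432). With the block and TPM as deposited, the limma adjusted p was 8.2e-05. The call was lost without LrpprcWT replicate 1 (0.0718), LrpprcWT replicate 3 (0.107) or LrpprcP27A replicate 3 (0.0557). As for *Sat1*, the macrophage and fibroblast markers moved the same way, and their part was not tested. Within a library, the ratio of *Azin1* to *Oaz1* was 0.103 ± 0.0264 with LrpprcWT and 0.0635 ± 0.00455 with LrpprcP27A, and that of *Azin1* to *Odc1* was 0.455 ± 0.0629 and 0.182 ± 0.0499 (SD, n = 3 each). Both ratios were lower in all 3 LrpprcP27A libraries than in any LrpprcWT library.

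**Figure D3:**
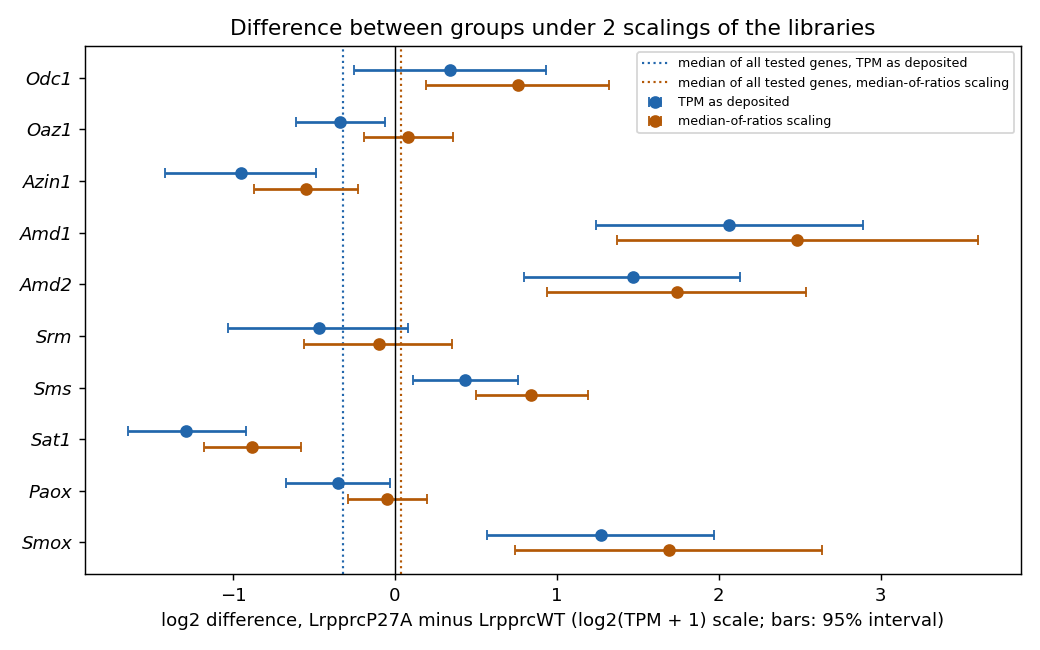
Log2 difference between LrpprcP27A and LrpprcWT with its 95% interval for each member, with TPM as deposited (blue) and after median-of-ratios scaling (orange). Dotted lines mark the median of all tested genes on each scale, -0.32 and 0.04. Smox, Sat1 and Azin1 keep their side of 0 on both scales, and Oaz1 lies at -0.34 on the first and 0.08 on the second. The values of Amd1 and Amd2 led to the list, so their intervals are a description and not a test.

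In level (TPM, which is per length), the members ranged widely within a group. The order of the LrpprcWT means was *Oaz1*, *Amd1*, *Odc1*, *Smox*, *Sat1*, *Sms*, *Azin1*, *Srm*, *Paox*, *Amd2*. The range of *Amd1* overlapped that of *Odc1*, *Odc1* that of *Smox* and *Smox* that of *Sat1*, as did those of *Sms* and *Azin1* and of *Paox* and *Amd2*. With LrpprcP27A the order was *Amd1*, *Oaz1*, *Smox*, *Odc1*, *Sms*, *Sat1*, *Azin1*, *Amd2*, *Srm*, *Paox*, and *Amd1* was separate from *Oaz1* (lowest 249.8 against highest 212 TPM). Among neighbours there, *Smox* and *Odc1*, *Sat1* and *Azin1*, and *Amd2* and *Srm* overlapped. The 10 genes together summed to 533, 606 and 621 TPM with LrpprcWT and to 665, 1056 and 979 TPM with LrpprcP27A. *Amd1* made up 13.2%, 26.96% and 10.8% of that sum with LrpprcWT and 37.6%, 47.5% and 46.9% with LrpprcP27A. The sum thus holds the gene whose increase led to the list, and it is not read as a result about the pathway. The spread between libraries also differed by gene: the coefficient of variation with LrpprcWT was 54.6% for *Amd1* and 7.25% for *Sms*.

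The stretches before the start sites of 4 members are shown because these genes differed most between the groups in either direction. They are the 250 bases before the RefSeq start site (assembly GRCm38.p6, printed 5′ to 3′ on the gene's strand), with every GC box (GGGCGG on either strand) and, in *Amd2*, the CCAAT box (CCAAT on either strand) in capitals. RefSeq promoters were matched for 8 of the 10 members, all but *Srm* and *Azin1*.
Amd1, chr10:40302189-40302438, minus strand: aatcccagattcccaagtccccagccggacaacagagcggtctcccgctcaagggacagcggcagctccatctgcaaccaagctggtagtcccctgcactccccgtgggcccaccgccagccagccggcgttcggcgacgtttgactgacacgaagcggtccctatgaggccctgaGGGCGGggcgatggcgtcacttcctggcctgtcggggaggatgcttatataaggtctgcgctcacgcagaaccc
Amd2, chr10:35711892-35712141, minus strand: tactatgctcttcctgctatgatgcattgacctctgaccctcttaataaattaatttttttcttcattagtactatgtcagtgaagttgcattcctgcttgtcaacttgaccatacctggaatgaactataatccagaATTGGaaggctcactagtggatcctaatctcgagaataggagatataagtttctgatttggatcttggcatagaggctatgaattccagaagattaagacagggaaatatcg
Smox, chr2:131491612-131491861, plus strand: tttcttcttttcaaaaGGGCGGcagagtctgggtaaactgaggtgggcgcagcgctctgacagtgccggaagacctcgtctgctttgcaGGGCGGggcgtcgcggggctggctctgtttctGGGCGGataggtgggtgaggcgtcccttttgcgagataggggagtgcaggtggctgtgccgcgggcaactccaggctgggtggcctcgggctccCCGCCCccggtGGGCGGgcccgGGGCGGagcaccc
Sat1, chrX:155216450-155216699, minus strand: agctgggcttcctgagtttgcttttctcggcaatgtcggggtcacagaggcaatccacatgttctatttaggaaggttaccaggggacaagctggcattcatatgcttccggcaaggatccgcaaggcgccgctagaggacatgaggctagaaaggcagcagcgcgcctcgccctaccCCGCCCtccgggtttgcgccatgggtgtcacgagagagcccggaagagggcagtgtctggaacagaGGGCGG
The GC box occurred 6 times before *Smox*, 4 times before *Odc1*, 2 times before *Sat1* and once each before *Amd1* and *Paox*, and 32.9% of the 27025 promoters of the same length hold at least 1. *Amd2* had none, and with *Sms* and *Oaz1* it held a CCAAT box, which 34.5% of promoters have. *Sms* alone of the 8 held the E-box CACGTG (6.0% of promoters), and none held TATAAA (3504 of the 27025) or the cAMP response element TGACGTCA (1.6%). Neither a GC box nor a CCAAT box was common to the 3 genes *Amd1*, *Amd2* and *Smox*. *Amd1* and *Amd2*, nearly identical in coding sequence, differed in their promoters, with a GC content of 64.4% and 37.6% (median of all promoters 52.0%). These matches are a description of the letters and do not show that a factor binds there.

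The genes whose pattern over the 6 libraries was most like that of *Amd1*, by Pearson's correlation of log2(TPM + 1), were *Gm41760* (r = 0.9973), *Cd24a* (0.9963), *Kif3c* (0.9943), *Me1* (0.9932) and *Tex2* (0.9915). *Cd24a*, a surface glycoprotein gene, was at 92.8, 151 and 91.0 TPM with LrpprcWT and at 168, 248 and 228 TPM with LrpprcP27A. *Me1*, for the cytosolic malic enzyme, was at 46.3, 75.1 and 50.2 TPM and at 84.0, 120.0 and 123 TPM. Like *Amd1*, both were highest in replicate 2 among the LrpprcWT libraries and lowest in replicate 1 among the LrpprcP27A libraries. Among the members, *Amd2* (r = 0.9938) and *Smox* (0.9779) had the highest values, at ranks 4 and 33 of all tested genes. *Sms* was at 0.7967 and *Odc1* at 0.3481. *Sat1* (-0.962), *Paox* (-0.943), *Azin1* (-0.9261), *Oaz1* (-0.8588) and *Srm* (-0.7345) were negative. These correlations describe 6 libraries that fall into 2 groups, which alone gives high values.

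Neighbouring pathways were described through 48 further genes in 5 lists, of which 30 reached a mean of 1 TPM. Their median log2 difference was -0.27, near that of all genes, and 28 of the 30 lay below 0. At an adjusted p under 0.05, 9 were lower and 1 was higher, beside 23.3% and 1.34% of all tested genes. After median-of-ratios scaling, 1 was lower and 2 were higher, beside 5.81% and 6.83%, and the median was 0.15. No wider gene was called without LrpprcWT replicate 1 (2.51% of all genes lower) or without LrpprcWT replicate 3 (0.129%). At an unadjusted p under 0.05 in limma, 10 and 9 were lower in these fits, beside 3312 and 3205 of all 11611 genes. In both, 1 was higher, beside 243 and 237 of all genes. Without LrpprcWT replicate 2, 16 were called lower beside 59.5% of all genes, and without LrpprcP27A replicate 1, 4 were called lower beside 14.5%. Without LrpprcP27A replicate 2 (4.34%) or 3 (3.79%), 1 was lower, *Atp13a3*. *Adi1*, the gene called higher, was also lost without LrpprcP27A replicate 2 (adjusted p = 0.0879) or 3 (0.082). The lists below are described by their genes, and their counts are not read as results about a list.

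Of the 5 tested genes of polyamine transport, 3 were called lower with TPM as deposited and 1 after median-of-ratios scaling, beside 23.3% and 5.81% of all genes. *Atp13a3*, a P-type ATPase that carries polyamines into cells, was at 16.5, 10.8 and 18.9 TPM with LrpprcWT and at 4.83, 6.93 and 8.01 TPM with LrpprcP27A. The groups did not overlap, and the log2 difference was -1.10 ± 0.23 (SE, limma adjusted p = 0.0202). Median-of-ratios scaling gave -0.72 (adjusted p = 0.0478), and with quantile normalization the call was lost (-0.74, adjusted p = 0.0519). Its call was lost without LrpprcWT replicate 1 (0.0644) or 3 (0.105). *Slc18b1*, a vesicular polyamine transporter, and *Slc3a2*, the heavy chain of several amino acid carriers, had log2 differences of -0.60 and -0.64 (adjusted p = 0.0267 and 0.0428). Neither was called after median-of-ratios scaling (-0.30 and -0.24, adjusted p = 0.0811 and 0.247). The highest gene of this list, the heparan sulfate proteoglycan *Gpc1*, was at 155 ± 15.7 and 128 ± 11.9 TPM (SD, n = 3 each) and overlapped between the groups.

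In the supply of arginine and ornithine, 2 of 7 tested genes were called lower with TPM as deposited, beside 23.3% of all genes, *Asl* (argininosuccinate lyase, log2 difference -0.57, adjusted p = 0.0378) and *Aldh18a1* (pyrroline-5-carboxylate synthase, -0.56, 0.0414). Neither was called after median-of-ratios scaling (-0.26 and -0.23, adjusted p = 0.13 and 0.168). *Oat*, for ornithine aminotransferase, was the highest of this list at 128 ± 8.57 and 118 ± 9.95 TPM (SD, n = 3 each), and its groups overlapped. The arginases *Arg1* and *Arg2* did not reach 1 TPM in mean, with *Arg1* at most 0.0490 TPM and *Arg2* at most 0.486 TPM in any library.

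The methionine cycle supplies S-adenosylmethionine to *Amd1*, and the methylthioadenosine salvage route returns the by-product of *Srm* and *Sms*. Of 13 tested genes, 2 were called lower and 1 higher with TPM as deposited, beside 23.3% and 1.34% of all genes, and 0 and 2 after median-of-ratios scaling, beside 5.81% and 6.83%. *Mat2a*, for the enzyme that makes S-adenosylmethionine outside the liver, was at 126, 98.8 and 145 TPM with LrpprcWT and at 77.5, 72.5 and 81.9 TPM with LrpprcP27A. The ranges did not overlap, and the log2 difference was -0.65 ± 0.15 (SE, limma adjusted p = 0.024), or -0.23 after median-of-ratios scaling (adjusted p = 0.118) and -0.40 after quantile normalization (adjusted p = 0.0492). *Ahcyl1*, a relative of S-adenosylhomocysteine hydrolase, had a log2 difference of -0.56 (adjusted p = 0.04), and of -0.17 after median-of-ratios scaling (adjusted p = 0.223). *Adi1*, for the dioxygenase of the salvage route, was at 31.1, 36.7 and 35.2 TPM with LrpprcWT and at 45.1, 52.2 and 54.6 TPM with LrpprcP27A. Its groups did not overlap, and the log2 difference was 0.55 ± 0.12 (SE, limma adjusted p = 0.0236), or 0.96 after median-of-ratios scaling (adjusted p = 0.026). *Enoph1*, the enzyme of the step before it, had a log2 difference of 0.09 that was not called, and one of 0.45 after median-of-ratios scaling (adjusted p = 0.0266). *Got1*, a cytosolic aspartate aminotransferase, was the highest gene of the list at 339.6 ± 46.0 and 280.3 ± 10.1 TPM (SD, n = 3 each) and was not called (adjusted p = 0.101).

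Spermidine is the donor for hypusine, a modified lysine of the translation factor eIF5A. *Eif5a* was at 272, 221 and 278 TPM with LrpprcWT and at 201, 199.6 and 189 TPM with LrpprcP27A. Its log2 difference of -0.38 (limma adjusted p = 0.0436) lay near the median of all genes, and it was 0.04 after median-of-ratios scaling. Among the family relatives, *Oaz2*, a second antizyme gene, was at 164 ± 18.6 and 123 ± 5.26 TPM (SD, n = 3 each), with a log2 difference of -0.41 (adjusted p = 0.0356) that was 0.01 after median-of-ratios scaling. No direction is therefore given for *Eif5a* or *Oaz2*.

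**Figure D4:**
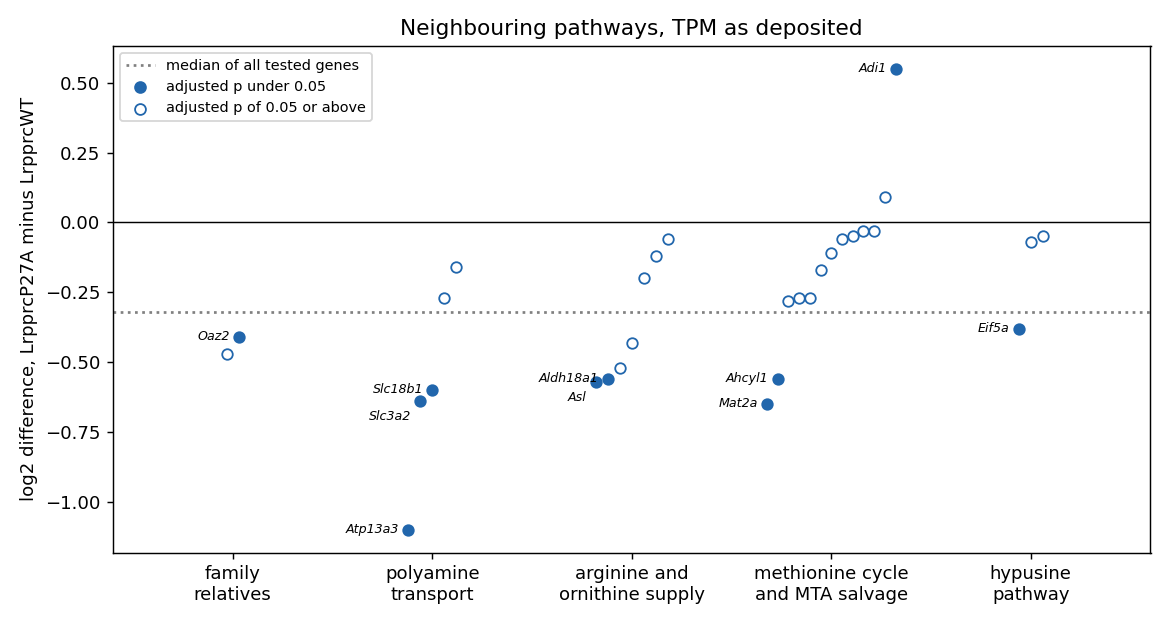
Log2 difference between LrpprcP27A and LrpprcWT (TPM as deposited) of the 30 tested genes of 5 neighbouring lists. Filled points have an adjusted p under 0.05 and are named, and the dotted line is the median of all tested genes, -0.32. Adi1 is the 1 filled point above 0, at 0.55, and Atp13a3 is the lowest, at -1.10.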

How the data were processed

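RNA of 6 TA muscles was sequenced from TruSeq v2 libraries. According to the methods, the authors trimmed paired reads of 100 bases, mapped them with CLC Genomics Workbench (build GRCm39) and computed TPM, which they deposited for 41709 genes with no further scaling between libraries. TPM depends on the total of each library, so a few abundant RNAs can shift all others.

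Genes whose mean TPM reached 1 (11611) were compared as log2(TPM + 1) in limma 3.58.1 (R 4.3.3, trend, no block), with Benjamini-Hochberg adjustment over all of them and a threshold of 0.05. Fold changes on this scale understate those of low genes. The methods' Kruskal-Wallis test cannot reach a small p with 3 against 3 and was an alternative. The members and lists were chosen with earlier results of these data known. Named were all members, of each wider list the called genes (at most 4) and the highest gene, the 5 genes most like *Amd1*, and *Lrpprc*. *Amd1* and *Amd2*, whose values led to the list, were left out of every count of called members. *Enoph1*, *Arg1* and *Arg2* were named after their values were seen.

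Replicate numbers were taken as pairs, since the muscles were contralateral and both groups share library numbers. Deviations from the group means correlated by 0.363, 0.528 and 0.356 within pairs 1, 2 and 3. That a number marks 1 mouse was not stated outright.

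Tested on simulated data for 11611 genes, the fit called 191 of 200 genes changed by 2 on the log2 scale and 16 unchanged ones. The simulated libraries held no pairs and no shift shared by many genes. These counts therefore do not give the power or the false calls for smaller differences in the real libraries. Positions are from GENCODE on GRCm39 and shared runs from BLAST 2.17.0.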

Additional observations from a re-analysis of the deposited data

How the results depend on the processing

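Over all genes, the count lower with LrpprcP27A (2705) was 24 with no filter on low values, 1560 at a mean TPM of at least 5, 675 by median of ratios, 521 by quantile normalization and 661 after rescaling without mitochondrial and ribosomal RNA. The count higher (156) was 7 with no filter, 793 by median of ratios and 493 by quantile normalization. The Kruskal-Wallis test called 0 genes after adjustment, and at an unadjusted p under 0.05 it had 5530 lower and 407 higher. With the replicate block 5619 were lower and 312 higher, and with the block joined to median-of-ratios scaling 1636 and 1995. Leaving out 1 library gave 15 to 6913 lower and 3 to 304 higher.

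For the 8 tested polyamine genes the counts were 2 lower and 1 higher. Limma on all genes, unfiltered, called 0 and 0, with 4 and 2 at an unadjusted p under 0.05, and the Kruskal-Wallis test likewise 0 and 0, with 4 and 2. The paired fit called 5 lower (*Srm*, *Sat1*, *Paox*, *Oaz1*, *Azin1*) and 2 higher (*Sms*, *Smox*). Higher were also 2 (*Sms*, *Smox*) by median of ratios, by quantile normalization and by rescaling without mitochondrial and ribosomal RNA. The limma adjusted p of *Sms* was 0.026, 0.0312 and 0.0383, and the counts higher of all 11611 genes by the first 2 were 793 and 493. By rescaling, 220 of all genes were higher. When the block was joined to the median of ratios, 3 were higher (*Odc1*, *Sms*, *Smox*), beside 1995 of all genes. Without 1 library there were 0 to 5 lower and 0 to 2 higher. The sign turned for *Paox* with quantile normalization (0.06) and for *Oaz1* with median-of-ratios scaling, with and without the block (0.08 in both). *Sat1*, *Azin1* and *Smox* kept their direction and call under every scaling and with the block.

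For the wider genes the counts were 9 lower and 1 higher. Limma with no filter called 0 and 0 (10 and 1 at an unadjusted p under 0.05), and the Kruskal-Wallis test 0 and 0 (13 and 1). The lower and higher counts were 1 and 2 by median of ratios and 1 and 3 by quantile normalization. With the block and median-of-ratios scaling they were 2 and 9, beside 1636 and 1995 of all genes. After rescaling 2 were lower, beside 661 of all genes. Without 1 library they ran from 0 to 16 and from 0 to 1. With and without the block, median-of-ratios scaling turned the sign of *Oaz2* (0.01), *Gpc1* (0.15), *Oat* (0.30), *Got1* (0.15) and *Eif5a* (0.04). *Oat* also turned with quantile normalization (0.14) and rescaling (0.07). Beside the polyamine genes, the block brought *Lrpprc* (adjusted p = 0.00243) and *Gm41760* (0.0244) past the threshold, and it changed the call of no other gene named. The causes were not tested. TPM keeps no counts, so the limit that depth set on any single gene is unknown. With 3 muscles a group the intervals of *Odc1* and *Srm* were wide.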
